A study of Mus musculus with 9 samples.

Results

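The genes described here are 31 genes of sterol and fatty acid synthesis, chosen by name and read from a table of 24493 genes. All 31 were in the table, and all passed the filter of a mean of at least 1 TPM (a transcript abundance corrected for length, scaled to the same total in each sample), as did 13843 genes in all. They were measured in the mouse pancreatic tumor cell clone 6419c5, on a C57BL/6 background, in tumors that had been implanted under the skin and were at a late stage. Polyadenylated RNA of 9 samples was sequenced, 3 of wild-type cells (WT), 3 of a first knockout of Usp22 (Usp22-KOA) and 3 of a further one (Usp22-KOB). All 3 groups come from this single clone. What the letters A and B stand for, how tumor cells were parted from other cells and the age of the mice were not stated. Nor is it said that samples came from separate mice. The p-values thus rest on the scatter among these 9 samples alone, part or all of which may be technical.

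As background, cells make cholesterol from acetyl-CoA through mevalonate, squalene and lanosterol, and make fatty acids from the same precursor. Both routes are switched on by the transcription factors SREBP1 and SREBP2, encoded by Srebf1 and Srebf2. When sterols are plentiful, the membrane protein Insig1 keeps the SREBP precursors in the endoplasmic reticulum, and when sterols run low the precursors are cut and enter the nucleus. Insig1 is itself a target of SREBP. Pancreatic tumor cells are known to need lipid for growth, either made within the cell or taken up.

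The RefSeq table of promoters (build GRCm38.p6) held 24 of the 31 genes. Stretches just before the transcription start are shown for 3 genes that fell in Usp22-KOA (Hmgcs1, Mvd and Insig1) and 2 that rose there (Mvk and Tmem97). Each is written 5′ to 3′ in the direction of its gene, and ends just before the earlier of the RefSeq and GENCODE starts. Capitals mark matches, on either strand, to TCACNCCAC (a sterol regulatory element), CCAAT (the box bound by NF-Y, a partner of SREBP), CACGTG (an E-box) or GGGCGG (a GC box). The lines give Hmgcs1 at chr13:119690201-119690350 (plus strand), Mvd at chr8:122443423-122443572 (minus), Insig1 at chr5:28071213-28071362 (plus), Mvk at chr5:114444061-114444268 (plus) and Tmem97 at chr11:78550778-78550927 (minus).
Hmgcs1: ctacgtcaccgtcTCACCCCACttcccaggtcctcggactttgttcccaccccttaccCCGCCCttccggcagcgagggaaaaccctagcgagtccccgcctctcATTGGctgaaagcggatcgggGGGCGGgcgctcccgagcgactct
Mvd: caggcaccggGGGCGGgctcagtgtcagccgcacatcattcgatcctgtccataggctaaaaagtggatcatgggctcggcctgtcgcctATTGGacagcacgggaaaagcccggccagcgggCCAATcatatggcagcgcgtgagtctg
Insig1: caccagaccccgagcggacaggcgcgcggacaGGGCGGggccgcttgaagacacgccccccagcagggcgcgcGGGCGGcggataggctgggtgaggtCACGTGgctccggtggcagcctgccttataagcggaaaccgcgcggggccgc
Mvk: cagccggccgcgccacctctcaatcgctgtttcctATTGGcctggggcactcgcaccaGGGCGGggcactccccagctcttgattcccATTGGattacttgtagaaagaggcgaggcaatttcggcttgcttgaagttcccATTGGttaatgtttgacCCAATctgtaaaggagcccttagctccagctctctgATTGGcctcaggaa
Tmem97: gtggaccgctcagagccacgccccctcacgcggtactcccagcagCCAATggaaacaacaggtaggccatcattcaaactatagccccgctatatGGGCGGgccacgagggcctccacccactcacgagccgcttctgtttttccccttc

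Windows ran from 250 bases before to 50 after each start, and a gene was counted when any of its windows held the match. Some genes, such as Dhcr7 and Srebf1, had more than 1 window. CCAAT stood in 21 of the 24 genes (87.5%). It stood in 41.1% of all 27025 genes of the RefSeq table and in 42.7% of the 10507 of them that were tested for expression. GGGCGG stood in 20 of the 24 (83.3%), against 38.2% of all genes and 65.7% of the tested ones. CACGTG stood in 4 (16.7%, against 8.09% and 11.4%). The strict sterol element TCACNCCAC stood in Hmgcs1 alone (4.17%, against 1.44% and 1.32%), at 137 bases before the start. CCAAT stood in the windows of Hmgcs1, Mvd and Insig1, which fell in Usp22-KOA, and also in those of Mvk and Tmem97, which rose there (the match of Insig1 lies outside the stretch shown). The stretch shown for Mvk is the whole gap between Mvk and Mmab, the gene that runs the other way, with 5 CCAAT matches in 208 bases. A match is a description of letters and not a measured binding site.

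Usp22, a ubiquitin protease of the SAGA coactivator, was lower in both knockouts, as their labels say (chromosome 11, 61151785 to 61175055 in GRCm38). It had 55.1, 54.5 and 56.4 TPM in WT, 9.77, 8.46 and 10.1 TPM in Usp22-KOA and 11.8, 14.9 and 14.1 TPM in Usp22-KOB. Of 7 markers of the epithelial tumor cells, 5 fell and 1 rose in Usp22-KOA, and 3 fell and 0 rose in Usp22-KOB. By the same rule, given below, 26.9% of all tested genes fell and 29.4% rose in Usp22-KOA, and 18.4% fell and 18.7% rose in Usp22-KOB. The keratin Krt8 ran from 2355 to 3001 TPM over the 9 samples and was called in neither, and Krt19 rose to 136% of WT in Usp22-KOA. Krt18 fell to 52.5% and Cdh1 to 70.2% of WT in Usp22-KOA. In Usp22-KOA and Usp22-KOB, Krt7 fell to 16.2% and 72.1% of WT, Cldn4 to 2.55% and 18.2%, and Epcam to 9.94% and 8.26%. The part of these changes in the results that follow was not tested.

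Most of the 31 genes fell in Usp22-KOA, while most of those called in Usp22-KOB rose. In Usp22-KOA against WT, 20 of the 31 fell and 4 rose, with 7 not called. A call needs a p under 0.05 in limma, a linear model fitted to all 13843 genes, after Benjamini-Hochberg adjustment over them. By this rule 56.3% of all tested genes were called in this comparison, 26.9% lower and 29.4% higher. In Usp22-KOB against WT, 13 of the 31 rose, 1 fell and 17 were not called, against 37.1% of all tested genes called, 18.7% higher and 18.4% lower. Differences are given on the log2(TPM + 1) scale as value ± SE. For Usp22-KOA the 31 genes had a median difference of -0.55, and for Usp22-KOB one of 0.19, while the medians of all tested genes were 0.02 and -0.01. Of the 31, 8 were called lower in Usp22-KOA and higher in Usp22-KOB (25.8%, against 1.65% of all tested genes). Some of these Usp22-KOB calls were lost when single samples were left out, as given below. A further 11 were lower in Usp22-KOA and not called in Usp22-KOB (35.5%, against 13.9%). Another 3 were called higher in both (9.68%, against 10.9%) and 1 lower in both (3.23%, against 11.4%). Both comparisons use the same 3 WT samples. The RNA is that of whole samples, so fewer cells of a type and less RNA per cell cannot be told apart. In Usp22-KOA against Usp22-KOB, which uses no WT sample, 23 of the 31 were lower, 2 were higher (Mvk and Scd1) and 6 were not called, against 51.7% of all tested genes called, 24.2% lower and 27.5% higher. The counts by role that follow cover few genes each and are to be read against these shares.

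**Figure D1:**
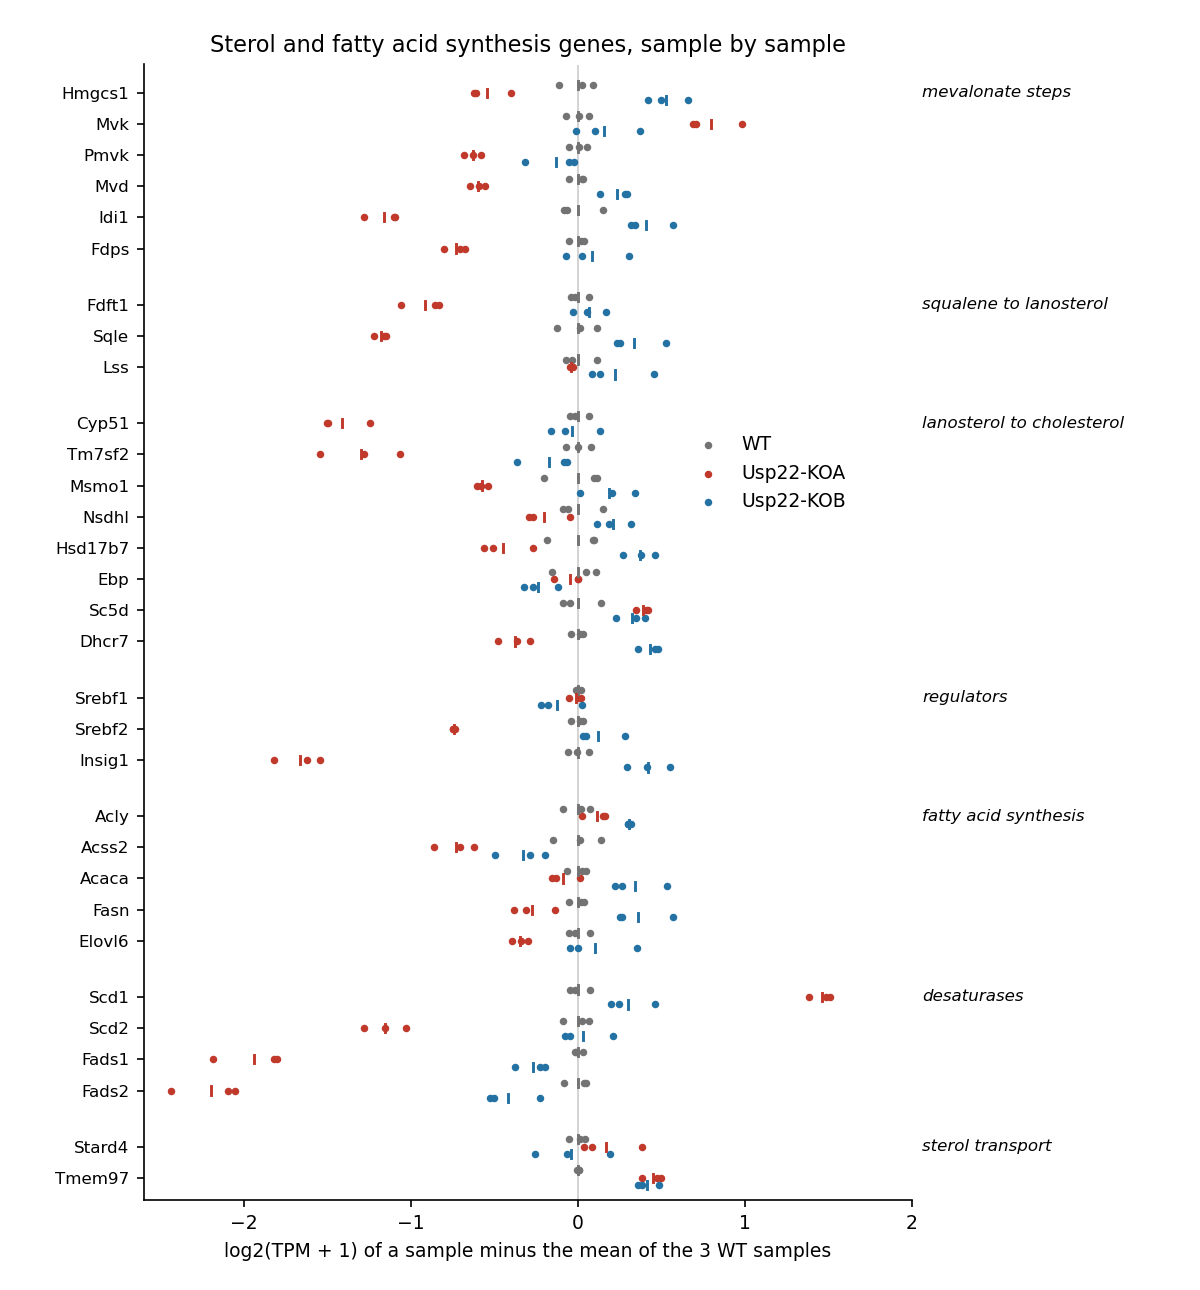
Each point is the log2(TPM + 1) of 1 sample after subtraction of the WT mean, for the 31 genes in groups by role, and the short lines are group means (n = 3). The Usp22-KOA points lie to the left of WT for most genes and to the right for Scd1, Mvk, Sc5d and Tmem97, whose rises were called, and for Acly and Stard4, which were not called, whereas most Usp22-KOB points lie near WT or to its right.

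The early steps from acetyl-CoA units to farnesyl diphosphate are made by 6 enzymes, of which 5 fell and 1 rose in Usp22-KOA, while 3 rose and 0 fell in Usp22-KOB. Hmgcs1, which makes HMG-CoA, had 44.3, 38.3 and 42.4 TPM in WT, 26.9, 26.6 and 31.3 TPM in Usp22-KOA and 56.0, 59.1 and 66.2 TPM in Usp22-KOB. The 3 groups did not overlap, with Usp22-KOA below and Usp22-KOB above WT. The differences from WT were -0.55 ± 0.09 (adjusted p = 7.64e-04) and 0.53 ± 0.09 (adjusted p = 0.00223). Idi1, the isopentenyl diphosphate isomerase, had 28.2, 24.1 and 23.9 TPM in WT, 11.3, 11.3 and 9.80 TPM in Usp22-KOA and 31.8, 32.3 and 38.1 TPM in Usp22-KOB. It too was lowest in Usp22-KOA and highest in Usp22-KOB without overlap, by -1.16 ± 0.10 (adjusted p = 1.36e-05) and 0.41 ± 0.10 (adjusted p = 0.0119). Mvd, which makes isopentenyl diphosphate, stood at 64.9% of the WT mean in Usp22-KOA and 118% in Usp22-KOB, and both differences were called. The call in Usp22-KOB ended without WT 2, Usp22-KOB 1 or Usp22-KOB 2 (adjusted p = 0.0642 to 0.0765).

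Fdps, the synthase of farnesyl diphosphate, was the highest of these 6 enzymes, with 149, 142 and 152 TPM in WT, 90.1, 84.1 and 92.0 TPM in Usp22-KOA and 140.4, 150.2 and 182 TPM in Usp22-KOB. Only Usp22-KOA lay apart from WT (-0.73 ± 0.09, adjusted p = 1.25e-04), since the Usp22-KOB samples spread across the WT range (0.09 ± 0.09, adjusted p = 0.493). Pmvk, which adds the second phosphate to mevalonate, fell to 63.5% of WT in Usp22-KOA and stood at 91.3% in Usp22-KOB (adjusted p = 0.244).

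Mvk, the kinase that acts just before Pmvk, went the other way. It had 21.8, 22.7 and 20.5 TPM in WT, 36.0, 35.5 and 43.8 TPM in Usp22-KOA and 21.4, 23.3 and 28.3 TPM in Usp22-KOB. All Usp22-KOA samples lay above all others, with a difference from WT of 0.79 ± 0.11 (adjusted p = 3.29e-04), and Usp22-KOB overlapped WT (0.15 ± 0.11, adjusted p = 0.329). The ratio of Mvk to Pmvk in TPM was 0.596 ± 0.0309, 1.66 ± 0.148 and 0.737 ± 0.108 in WT, Usp22-KOA and Usp22-KOB (SD, n = 3). Mvk (chromosome 5, 114444269 to 114460591, plus strand) starts 209 bases from Mmab, a gene of vitamin B12 metabolism on the minus strand. Mmab had 9.44, 8.05 and 7.48 TPM in WT, 17.2, 14.8 and 18.3 TPM in Usp22-KOA and 6.56, 8.14 and 8.18 TPM in Usp22-KOB. Like its neighbour, it was higher in each Usp22-KOA sample than in any other sample (0.93 ± 0.12 against WT, adjusted p = 1.80e-04).

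Among the 3 enzymes from farnesyl diphosphate to lanosterol, 2 fell in Usp22-KOA. Sqle, the squalene epoxidase and a rate-limiting enzyme of the pathway, had 43.6, 36.7 and 40.6 TPM in WT, 17.4, 16.6 and 17.6 TPM in Usp22-KOA and 47.4, 48.1 and 58.4 TPM in Usp22-KOB. Its differences from WT were -1.18 ± 0.09 (adjusted p = 8.33e-06) and 0.34 ± 0.09 (adjusted p = 0.0204), again with no overlap of the 3 groups. The call in Usp22-KOB ended without WT 2 or WT 3 (adjusted p = 0.0722 and 0.0515). Fdft1, the squalene synthase, stood at 50.4% of WT in Usp22-KOA (-0.91 ± 0.09, adjusted p = 2.60e-05) and at 105% in Usp22-KOB (adjusted p = 0.606). Lss, which closes the sterol rings, was called in neither: its means were 10.2 ± 0.776, 9.87 ± 0.0922 and 12.1 ± 1.92 TPM in WT, Usp22-KOA and Usp22-KOB (SD, n = 3).

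From lanosterol to cholesterol, 5 of 8 enzymes fell and 1 rose in Usp22-KOA, and 3 rose and 0 fell in Usp22-KOB. Cyp51, the lanosterol demethylase, had 43.6, 40.2 and 41.2 TPM in WT, 14.1, 14.0 and 17.0 TPM in Usp22-KOA and 37.1, 39.4 and 45.7 TPM in Usp22-KOB. It fell in Usp22-KOA, by 1.42 ± 0.10 on the log2 scale (adjusted p = 3.71e-06), and Usp22-KOB spread around WT (-0.04 ± 0.10, adjusted p = 0.798). Tm7sf2, a sterol reductase that acts next to Cyp51, was at 37.9% of WT in Usp22-KOA (-1.30 ± 0.13, adjusted p = 3.56e-05) and 88.4% in Usp22-KOB (adjusted p = 0.33). Msmo1, the methylsterol oxidase, was at 66.4% and 114%, with the fall in Usp22-KOA called.

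Dhcr7, the reductase of the final step to cholesterol, had 22.3, 23.4 and 23.1 TPM in WT, 18.6, 17.6 and 16.1 TPM in Usp22-KOA and 29.6, 31.9 and 32.4 TPM in Usp22-KOB. The groups lay apart in the same order as for Hmgcs1, by -0.38 ± 0.07 (adjusted p = 0.00142) and 0.43 ± 0.07 (adjusted p = 0.0016). Hsd17b7, a sterol ketone reductase and the lowest of the 31 genes in each group, was at 68.7% and 134% of WT, with adjusted p = 0.0119 and 0.0417. The call for Hsd17b7 in Usp22-KOB ended on leaving out any 1 sample except Usp22-KOA 3 (adjusted p = 0.0505 to 0.138). Sc5d, the sterol desaturase that acts just before Dhcr7, was instead higher in both knockouts: 18.4, 19.0 and 21.7 TPM in WT, 25.2, 26.4 and 26.5 TPM in Usp22-KOA and 23.1, 25.3 and 26.3 TPM in Usp22-KOB. Its differences were 0.39 ± 0.08 (adjusted p = 0.00233) and 0.33 ± 0.08 (adjusted p = 0.0112), and the knockouts overlapped each other. Nsdhl, a sterol dehydrogenase, and Ebp, a sterol isomerase, passed in neither comparison with WT. Nsdhl stood at 85.7% in Usp22-KOA and at 117% in Usp22-KOB (adjusted p = 0.119 and 0.146). Ebp was at 96.3% in Usp22-KOA and 84.3% in Usp22-KOB (adjusted p = 0.648 and 0.0575), and without WT 3 or Usp22-KOB 3 it was called lower in Usp22-KOB (adjusted p = 0.0232 and 0.0280).

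Summed over the 17 enzymes of cholesterol synthesis, the level was 644, 601 and 630.1 TPM in WT, 429, 412 and 444 TPM in Usp22-KOA and 646, 679 and 772 TPM in Usp22-KOB. All Usp22-KOA sums lay below the WT sums, at 68.5% of WT on average, and all Usp22-KOB sums lay above them, with Usp22-KOB 1 close to the highest WT sum.

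**Figure D2:**
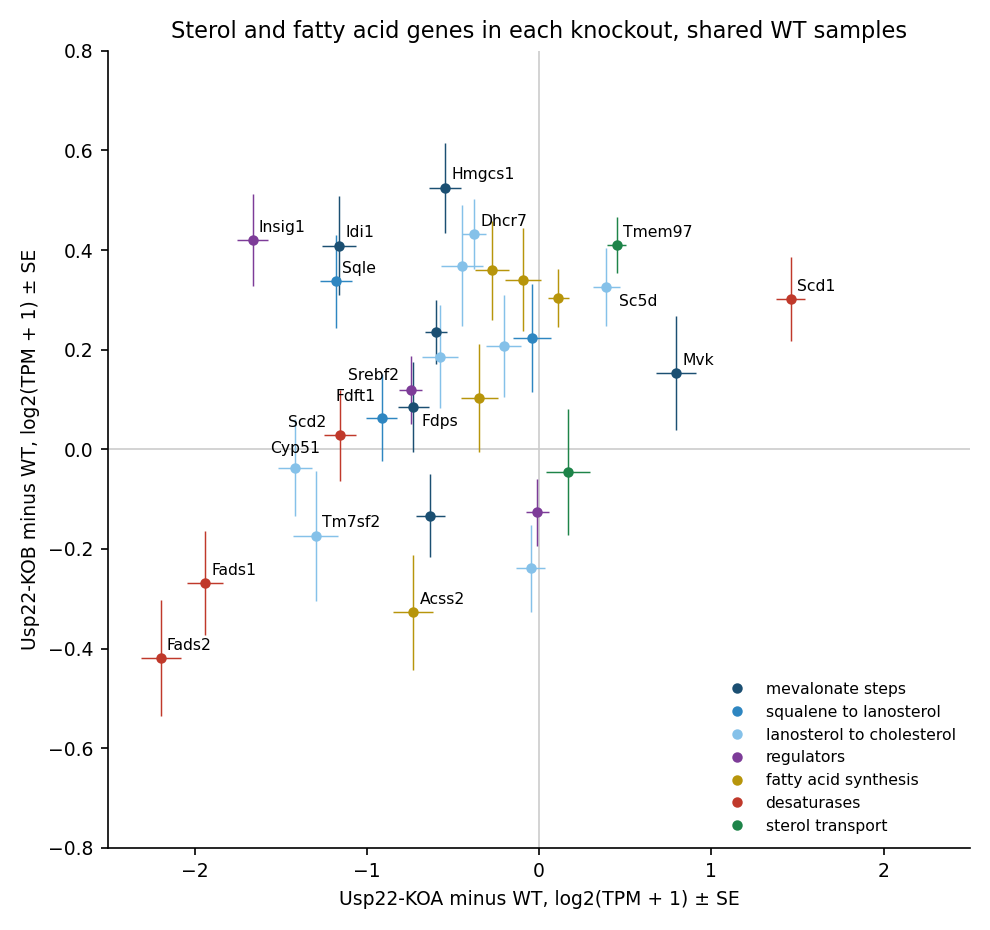
Each point is 1 gene, with its difference from WT in Usp22-KOA on the horizontal axis and in Usp22-KOB on the vertical axis (log2(TPM + 1), bars are ± SE, colours are roles, and both axes share the WT samples). Insig1, Idi1, Sqle, Hmgcs1 and Dhcr7 lie at the upper left, Scd1, Mvk, Sc5d and Tmem97 at the upper right, and Fads1 and Fads2 at the lower left.

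The regulators differed from each other. Insig1 (chromosome 5, 28071363 to 28078662) had 37.1, 35.7 and 39.0 TPM in WT, 12.1, 11.4 and 9.83 TPM in Usp22-KOA and 45.8, 49.9 and 55.1 TPM in Usp22-KOB. It fell to 29.8% of WT in Usp22-KOA (-1.66 ± 0.09, adjusted p = 1.01e-06) and rose to 135% in Usp22-KOB (0.42 ± 0.09, adjusted p = 0.00734), and of the 31 genes it differed most between the knockouts (-2.08 ± 0.09, adjusted p = 6.92e-07). Srebf2, which encodes the main activator of sterol genes, had 90.3, 87.1 and 91.5 TPM in WT, 53.0, 53.3 and 52.8 TPM in Usp22-KOA and 92.5, 91.6 and 109 TPM in Usp22-KOB. The Usp22-KOA samples lay close together and well below the rest (-0.75 ± 0.07, adjusted p = 2.00e-05), whereas the difference in Usp22-KOB did not pass (0.12 ± 0.07, adjusted p = 0.205).

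Srebf1, which encodes SREBP1a and SREBP1c, had 68.8, 69.0 and 70.4 TPM in WT, 70.3, 66.7 and 69.6 TPM in Usp22-KOA and 59.3, 61.1 and 70.6 TPM in Usp22-KOB. Its difference from WT was -0.01 ± 0.07 in Usp22-KOA (adjusted p = 0.9) and -0.13 ± 0.07 in Usp22-KOB (adjusted p = 0.172), and the table does not separate its forms. Without Usp22-KOB 3 it was called lower in Usp22-KOB (-0.20 ± 0.05, limma adjusted p = 0.0101). The ratio of Srebf1 to Srebf2 in TPM was 0.774 ± 0.0161, 1.30 ± 0.0418 and 0.652 ± 0.0129 in WT, Usp22-KOA and Usp22-KOB (SD, n = 3). These are mRNA levels, and the cut forms of the SREBP proteins were not measured here.

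All 5 genes of fatty acid synthesis were called lower when Usp22-KOA was set against Usp22-KOB, those of Acly and Acss2 near the threshold (adjusted p = 0.0232 and 0.0172) and lost on leaving out some single samples. Against WT, in Usp22-KOA 3 fell and 0 rose, and in Usp22-KOB 3 rose and 0 fell. Fasn, the fatty acid synthase, had 30.8, 30.4 and 28.8 TPM in WT, 24.0, 27.1 and 22.8 TPM in Usp22-KOA and 35.8, 36.1 and 44.8 TPM in Usp22-KOB. The groups did not overlap, but the call in Usp22-KOA was near the threshold (-0.28 ± 0.10, adjusted p = 0.0391), and it ended without WT 1, WT 2, WT 3, Usp22-KOA 1 or Usp22-KOA 3 (adjusted p = 0.0589 to 0.116). In Usp22-KOB the difference was 0.36 ± 0.10 (adjusted p = 0.02), a call that ended without WT 3 (adjusted p = 0.0651). Acly, which makes cytosolic acetyl-CoA from citrate, had 76.9, 79.7 and 71.2 TPM in WT, 84.4, 85.1 and 77.0 TPM in Usp22-KOA and 93.6, 93.4 and 94.6 TPM in Usp22-KOB. Only Usp22-KOB was called (0.30 ± 0.06, adjusted p = 0.00405).

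Acss2, which makes acetyl-CoA from acetate, was at 56.9% of WT in Usp22-KOA (-0.73 ± 0.12, adjusted p = 5.93e-04) and at 78.0% in Usp22-KOB, where it missed the threshold (adjusted p = 0.0533). Without WT 3 or Usp22-KOB 3 it was called lower there (limma adjusted p = 0.0441 and 0.0361). Acaca, the acetyl-CoA carboxylase, was at 93.0% of WT in Usp22-KOA (adjusted p = 0.473) and at 131% in Usp22-KOB (adjusted p = 0.0302), a call that ended without WT 1, WT 2, WT 3, Usp22-KOB 2 or Usp22-KOB 3 (adjusted p = 0.0536 to 0.0906). Elovl6, which extends saturated chains, was at 77.0% in Usp22-KOA (adjusted p = 0.0229) and 109% in Usp22-KOB (adjusted p = 0.493). Its call in Usp22-KOA ended without WT 1, WT 2, Usp22-KOA 1 or Usp22-KOA 2 (adjusted p = 0.0510 to 0.0753).

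The desaturases, which put double bonds into fatty acids, held the 2 largest differences from WT of the 31 genes, those of Fads2 and Fads1 in Usp22-KOA. Fads2, the delta-6 desaturase of polyunsaturated fatty acids, had 92.4, 93.1 and 84.9 TPM in WT, 15.8, 20.9 and 20.3 TPM in Usp22-KOA and 63.3, 62.2 and 76.8 TPM in Usp22-KOB. Each knockout lay below WT without overlap, at 21.1% of WT in Usp22-KOA (-2.20 ± 0.12, adjusted p = 7.74e-07) and 74.8% in Usp22-KOB (-0.42 ± 0.12, adjusted p = 0.0206). The call in Usp22-KOB ended without WT 1, WT 2, Usp22-KOB 1 or Usp22-KOB 2 (adjusted p = 0.0623 to 0.0759). Fads1, the delta-5 desaturase that acts on the products of Fads2, had 43.7, 45.0 and 43.4 TPM in WT, 11.8, 11.9 and 8.88 TPM in Usp22-KOA and 33.7, 38.3 and 37.4 TPM in Usp22-KOB. It fell by 1.94 ± 0.10 on the log2 scale in Usp22-KOA (adjusted p = 8.67e-07), and the lower values in Usp22-KOB missed the threshold (-0.27 ± 0.10, adjusted p = 0.0734). Without Usp22-KOA 3, Fads1 was called lower in Usp22-KOB (limma adjusted p = 0.0130).

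Fads1 and Fads2 lie head to head on chromosome 19, with 81142 bases between their starts (Fads1 at 10182888 to 10196877 and Fads2 at 10062765 to 10101746 in GRCm38). Fads3, the next gene of the cluster at 10041569 to 10060110 and not among the 31, was also lower in Usp22-KOA, at 46.7 TPM on average against 62.9 TPM in WT (-0.42 on the log2 scale, adjusted p = 0.00235). It was chosen after its values were seen, for its place beside Fads2.

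Scd1 and Scd2, a pair of stearoyl-CoA desaturases that make monounsaturated fatty acids, moved in opposite directions in Usp22-KOA. Scd1 had 13.5, 12.4 and 12.6 TPM in WT, 35.1, 37.7 and 38.4 TPM in Usp22-KOA and 15.4, 14.9 and 18.1 TPM in Usp22-KOB. Each knockout lay above WT, at 289% of WT in Usp22-KOA (1.46 ± 0.08, adjusted p = 1.22e-06) and 125% in Usp22-KOB (0.30 ± 0.08, adjusted p = 0.0208). The latter call ended without WT 2 or WT 3 (adjusted p = 0.0673 and 0.0599). Scd2, the highest of the 31 genes in WT, had 179, 161 and 174 TPM in WT, 76.2, 83.3 and 69.9 TPM in Usp22-KOA and 162, 165 and 198 TPM in Usp22-KOB. It fell in Usp22-KOA to 44.7% of WT (-1.15 ± 0.09, adjusted p = 8.55e-06) and overlapped WT in Usp22-KOB (adjusted p = 0.84). The ratio of Scd1 to Scd2 in TPM was 0.0750 ± 0.00215, 0.488 ± 0.0537 and 0.0920 ± 0.00239 in WT, Usp22-KOA and Usp22-KOB (SD, n = 3). Their sum was 184 ± 9.97, 114 ± 6.64 and 191 ± 21.5 TPM, so Scd2 remained the larger part of it in each group. Both lie on chromosome 19, Scd1 at 44394455 to 44407879 and Scd2 at 44293674 to 44306864. Reads of such close relatives can be divided between them, so single values are less certain than for other genes.

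**Figure D3:**
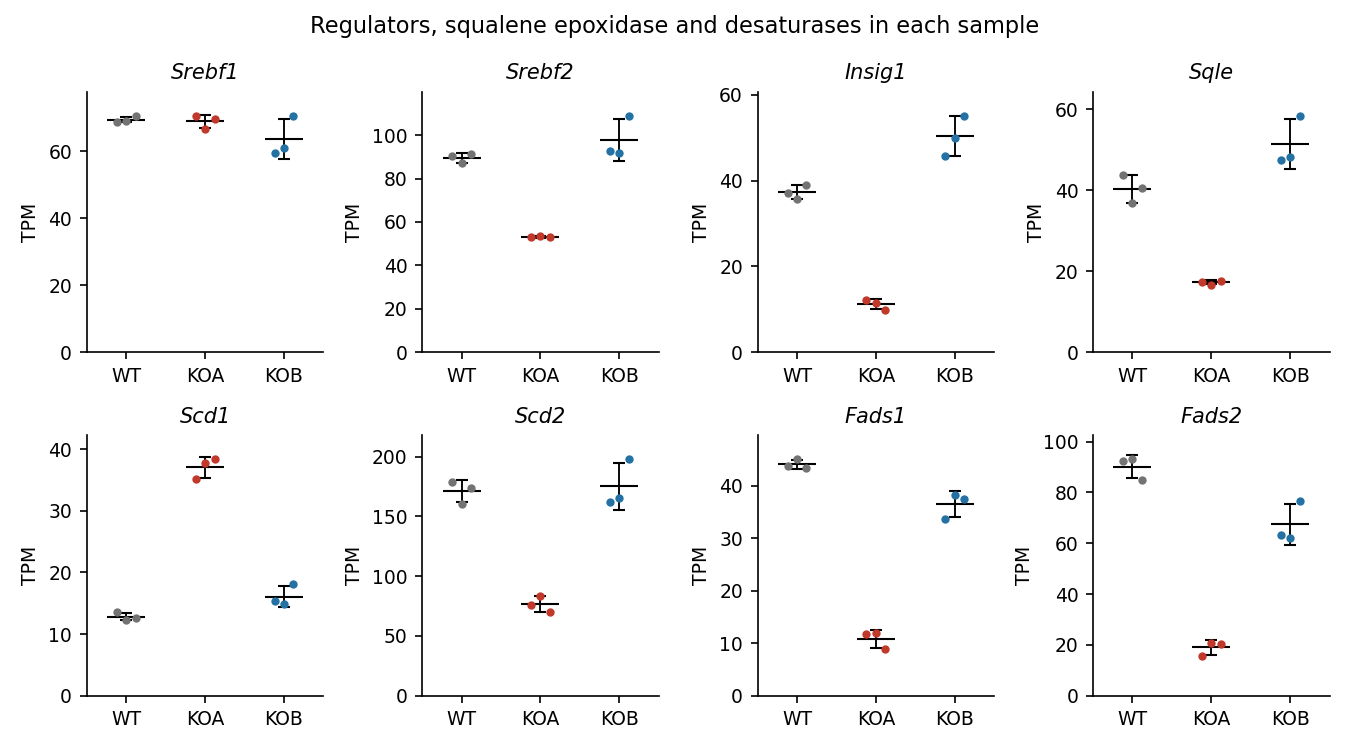
TPM of 8 genes in each sample (points) with the group mean and SD (n = 3), on axes that start at 0. Srebf1 overlaps between the groups, Srebf2, Insig1, Sqle, Scd2, Fads1 and Fads2 are lowest in Usp22-KOA, and Scd1 is highest there.

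Of the pair of sterol carriers, Tmem97, an endoplasmic reticulum protein that binds sterols, rose in both knockouts. It had 35.0, 35.3 and 35.3 TPM in WT, 46.2, 49.2 and 50.2 TPM in Usp22-KOA and 45.5, 46.3 and 49.7 TPM in Usp22-KOB. All 6 knockout samples lay above WT, by 0.45 ± 0.06 (adjusted p = 1.38e-04) and 0.41 ± 0.06 (adjusted p = 7.03e-04), and the knockouts did not differ beyond their spread (0.04 ± 0.06, adjusted p = 0.584). Stard4, a soluble sterol transfer protein, was at 114% and 97.6% of WT and was called in neither (adjusted p = 0.289 and 0.81).

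The mean of both knockouts was also compared with WT. By that comparison 14 of the 31 were lower and 5 higher, against 24.1% of all tested genes lower and 25.9% higher. Of the 14, only Fads2 was called lower in each knockout alone, and Mvd, Idi1, Sqle and Insig1 were called higher in Usp22-KOB. Of the 5, Sc5d, Scd1 and Tmem97 were called higher in each knockout alone. Hmgcs1 and Dhcr7, called in each knockout alone, came to -0.01 ± 0.08 and 0.03 ± 0.06. With the 6 knockout samples treated as 1 group, so that the gap between the knockouts counts as spread, 3 of the 31 were called: Sc5d and Tmem97 higher and Acss2 lower.

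Among the Usp22-KOB samples, replicate 3 had the highest values: 30 of the 31 genes lay above the group mean there on the log2 scale (median 0.15 above), against 3 in replicate 1 and 7 in replicate 2. The share of all tested genes above that mean was not counted. Genes at large were also higher in that sample: without it, the median difference of all tested genes from WT went from -0.01 to -0.05. Without Usp22-KOB 3, 11 of the 31 were called higher and 4 lower in Usp22-KOB against WT. Without WT 2 these were 8 and 0, and without WT 3 they were 8 and 3. In Usp22-KOA against WT, leaving out any 1 sample gave 22 to 24 called genes. Over all 13843 tested genes, leaving out 1 sample gave 3725 to 5615 calls in Usp22-KOB, against 5129 with all samples. In Usp22-KOA it gave 6946 to 8224, against 7793.

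Markers of other cell types also differed between the groups. Their counts are to be read against the shares of all tested genes, 29.4% higher and 26.9% lower in Usp22-KOA, and 18.7% higher and 18.4% lower in Usp22-KOB. The summed level of 10 macrophage and monocyte markers ran from 1906 to 2983, 1204 to 3021 and 5325 to 9465 TPM in WT, Usp22-KOA and Usp22-KOB. In Usp22-KOB 10 of 10 rose, and in Usp22-KOA 0 of 10 were called. Within Usp22-KOB the sum was lowest in replicate 3, the sample with the highest values of the 31 genes. Within Usp22-KOA the sum was also lowest in replicate 3 (1204 TPM, against 3021 and 2541 TPM in replicates 1 and 2). In Usp22-KOA 3, 18 of the 31 genes lay above the group mean (median 0.03 above on the log2 scale), against 15 and 17 in replicates 1 and 2. Summed mast cell markers (6 genes) ran from 148 to 182, 1188 to 2462 and 93.2 to 122.7 TPM in the same order of groups. In WT nearly all of this sum was Mcpt4 (160 TPM on average), while Cpa3, Cma1, Tpsb2, Kit and Fcer1a averaged at most 1.72 TPM each. All 6 rose in Usp22-KOA. In Usp22-KOB 4 rose (Cpa3, Cma1, Tpsb2 and Fcer1a, to 7.84, 13.2, 26.6 and 2.22 TPM) and 1 fell (Mcpt4, to 34.8% of WT). Summed fibroblast markers (6 genes) ran from 478 to 892, 179 to 208 and 766 to 1172 TPM in that order. Of these 4 fell in Usp22-KOA, and 3 rose in Usp22-KOB. Endothelial markers (6 genes) summed to 25.9 to 35.7, 4.30 to 9.64 and 19.0 to 29.7 TPM in the same order, and 5 of the 5 tested fell in Usp22-KOA and 1 in Usp22-KOB. T and NK cell markers (9 genes) summed to 8.22 to 15.1, 46.3 to 101 and 20.8 to 59.4 TPM, with 7 of the 8 tested higher in Usp22-KOA and 5 in Usp22-KOB. Like the macrophage sum, those of mast cell, fibroblast, endothelial and T and NK cell markers were lowest in replicate 3 within each knockout. The summed epithelial tumor cell markers were 6819, 7085 and 8333 TPM in Usp22-KOB 1, 2 and 3. In Usp22-KOA 1, 2 and 3 they were 7027, 6247 and 6778 TPM. All these cell types can also make sterols and fatty acids, and the part of their RNA in the results above was not tested.

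Of 11 adipocyte markers, 5 passed the filter, of which 1 rose and 2 fell in Usp22-KOA, and 1 rose in Usp22-KOB. The 11 summed to 45.5 to 50.7, 50.1 to 66.3 and 61.7 to 88.5 TPM in the same order. Adipoq, Plin1 and Lep stayed below 1 TPM in each of the 9 samples. Fabp4 averaged 19.2, 17.1 and 19.1 TPM and was called in neither knockout. Lpl averaged 12.8 TPM in WT and rose to 369.8% of that in Usp22-KOB (101% in Usp22-KOA), and Cidec averaged 9.37, 4.50 and 6.61 TPM and fell in Usp22-KOA. Plin4, a lipid droplet protein, was higher in Usp22-KOA (19.8, 19.0 and 28.4 TPM) than in WT (2.66, 1.83 and 2.94 TPM). The part of adipocyte RNA in the results was not tested. Markers of sebaceous cells and skin (10 genes) summed to 18.3 to 20.8, 3.63 to 8.53 and 13.9 to 17.4 TPM in the same order of groups, with 3 of the 4 tested lower in Usp22-KOA and 1 in Usp22-KOB. Muscle markers (5 genes) summed to at most 3.07 TPM in any sample. Proliferation genes (7) summed to 273 to 301, 283 to 328 and 312 to 334 TPM in WT, Usp22-KOA and Usp22-KOB. Pcna made up the largest part. Of them Mki67 fell to 59.2% of WT in Usp22-KOA and Top2a and Cdk1 rose to 123% and 133%, and in Usp22-KOB Mcm5 and Ccnb1 rose to 131% and 128%.

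**Figure D4:**
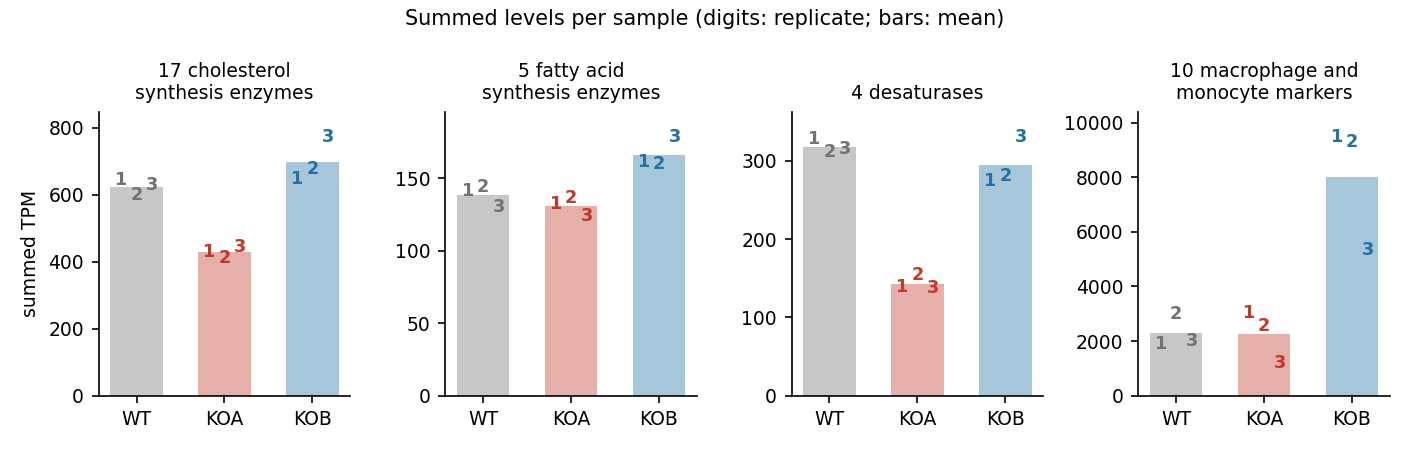
Bars are the mean summed TPM (n = 3) and each digit marks a replicate at its own value, for 17 cholesterol synthesis enzymes, 5 fatty acid synthesis enzymes, 4 desaturases and 10 macrophage and monocyte markers. Usp22-KOB 3 stands highest of its group for the synthesis genes and lowest for the macrophage markers. Usp22-KOA 3 is also lowest of its group for the macrophage markers, and it is highest for the cholesterol enzymes and lowest for the fatty acid enzymes and desaturases.

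The counts of 3 further lists are to be read against the same shares of all tested genes, 29.4% higher and 26.9% lower in Usp22-KOA, and 18.7% higher and 18.4% lower in Usp22-KOB. A further 14 genes of sterol synthesis and SREBP control moved in either direction: 5 fell and 4 rose in Usp22-KOA, and 5 rose and 0 fell in Usp22-KOB. Lbr, a nuclear membrane protein with sterol reductase activity, rose in Usp22-KOB (0.41 ± 0.08, adjusted p = 0.00358) and was at 97.4% of WT in Usp22-KOA. The proteases that cut SREBP differed from each other. Mbtps2, the site-2 protease, had 8.49, 8.37 and 8.68 TPM in WT, 16.8, 18.7 and 18.5 TPM in Usp22-KOA and 7.91, 10.2 and 10.1 TPM in Usp22-KOB. It thus stood at 211% of WT in Usp22-KOA (0.997 ± 0.10, adjusted p = 3.72e-05) and overlapped WT in Usp22-KOB (adjusted p = 0.372). Mbtps1, the site-1 protease, was at 81.0% in Usp22-KOA (adjusted p = 0.0188) and 84.7% in Usp22-KOB (adjusted p = 0.0635). Insig2, the relative of Insig1, rose to 136% of WT in Usp22-KOA (0.43 ± 0.06, adjusted p = 2.18e-04), where Insig1 fell, and was at 102% in Usp22-KOB.

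Of 18 tested genes of other fatty acid and lipid synthesis, 7 rose and 4 fell in Usp22-KOA, and 3 rose and 1 fell in Usp22-KOB, where the share of higher calls was near that of all tested genes (18.7%). Dgat2, which makes triglyceride, had 32.1, 29.9 and 35.4 TPM in WT, 6.00, 6.17 and 7.63 TPM in Usp22-KOA and 18.4, 21.0 and 23.1 TPM in Usp22-KOB. It fell to 20.3% of WT in Usp22-KOA and to 64.0% in the other knockout (-2.14 ± 0.11, adjusted p = 7.84e-07, and -0.62 ± 0.11, adjusted p = 0.00299). Acsl3, an acyl-CoA synthetase of lipid droplets, fell to 40.5% in Usp22-KOA and was at 107% in Usp22-KOB. Aacs, which makes acetoacetyl-CoA for lipid synthesis, rose in both knockouts, to 179% and 165% of WT. Elovl1, Elovl5 and Hacd3, which act in chain elongation, rose to 161%, 143% and 160% of WT in Usp22-KOA.

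Of 12 tested genes of sterol efflux, storage and oxysterols, 4 rose and 1 fell in Usp22-KOA, and 9 rose and 1 fell in Usp22-KOB. Nr1h3, the liver X receptor alpha, had 14.0, 16.6 and 15.3 TPM in WT, 41.3, 34.4 and 43.3 TPM in Usp22-KOA and 24.5, 27.8 and 28.1 TPM in Usp22-KOB. The 3 groups did not overlap, and both rises were called (1.32 ± 0.10, adjusted p = 7.40e-06, and 0.77 ± 0.10, adjusted p = 5.85e-04). Nr1h2, the liver X receptor beta, fell to 79.4% and 73.8% of WT. Scd1, Srebf1 and the cholesterol exporters Abca1 and Abcg1 are among the known targets of these receptors. Of this list, Mylip and Lpcat3 also rose in Usp22-KOA, to 230% and 126% of WT (limma adjusted p = 0.00598 and 0.00496). Neither was called in Usp22-KOB (limma adjusted p = 0.126 and 0.809). Abca1 was at 76.5% of WT in Usp22-KOA (adjusted p = 0.185) and rose to 245% in Usp22-KOB, and Abcg1 was at 177% (adjusted p = 0.0953) and rose to 339%. Soat1, which esterifies cholesterol, was at 100.1% of WT in Usp22-KOA (adjusted p = 0.992) and rose to 149.6% in Usp22-KOB, while Npc1, which moves cholesterol out of lysosomes, rose in both, to 133% and 149%. Cyp27a1, a sterol hydroxylase, was at 85.6% (adjusted p = 0.342) and rose to 179%. Abca1, Abcg1 and Cyp27a1 are well expressed in macrophages, whose summed markers were also highest in Usp22-KOB, and within Usp22-KOB these 3 genes and the macrophage markers were lowest in replicate 3. The part of macrophage RNA in their rise was not tested.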

How the data were processed

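Polyadenylated RNA of 9 samples was quantified as TPM, a length-corrected transcript abundance. The authors deposited 1 table of TPM for 24493 genes. The submitters' processing notes name Salmon, DESeq2 and the build mm10, with their roles and versions not given in the sources used here. Read depth cannot be had from TPM, so it is unknown, and no counting error is given.

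Deposited values were turned into log2(TPM + 1), a pseudocount of 1, and 13843 genes whose mean reached 1 TPM were kept. One limma 3.58.1 model (R 4.3.3, eBayes with trend, 1 mean per group, 3 samples each) gave every difference, and p-values were adjusted by Benjamini-Hochberg over all genes tested. A fold on this scale understates changes of low genes. The model was tested on simulated data. Promoter windows come from RefSeq (GRCm38.p6) and gene coordinates from GENCODE M21 (GRCm38). Summed levels and ratios are in TPM.

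The 31 genes, the 3 lists of other lipid genes and the 10 lists of cell type markers were chosen with earlier results of these data known. From each list of other lipid genes, those named are up to 5 ranked by adjusted p in both knockouts against WT and up to 3 in Usp22-KOA against Usp22-KOB. Fads3, Mylip and Lpcat3 were named outside this rule, after their values were seen. A few genes that this rule selects are not reported here. Alternatives were other pseudocounts, filters, scalings, weights and sample sets, a replicate block, and leaving out each sample.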

Additional observations from a re-analysis of the deposited data

Results flagged for a closer look

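The effect against WT differed between the knockouts, by limma's test of Usp22-KOA against Usp22-KOB, for 25 of the 31 genes, where 51.7% of all tested genes were called. Values are Usp22-KOA minus Usp22-KOB in log2(TPM + 1). Among the sterol enzymes the difference was -1.07 for Hmgcs1, 0.64 for Mvk, -0.50 for Pmvk, -0.84 for Mvd, -1.57 for Idi1 and -0.81 for Fdps. It was -0.98 for Fdft1, -1.52 for Sqle, -1.38 for Cyp51, -1.12 for Tm7sf2, -0.76 for Msmo1, -0.41 for Nsdhl, -0.82 for Hsd17b7 and -0.81 for Dhcr7. Of the regulators, Srebf2 differed by -0.86 and Insig1 by -2.08. In fatty acid synthesis the values were -0.19 for Acly, -0.40 for Acss2, -0.43 for Acaca, -0.64 for Fasn and -0.45 for Elovl6. Of the desaturases, Scd1 differed by 1.16, Scd2 by -1.18, Fads1 by -1.67 and Fads2 by -1.78. Mvk and Scd1 are the 2 genes of the 25 with the higher level in Usp22-KOA. The call for Acly ended without Usp22-KOA 3, Usp22-KOB 1 or Usp22-KOB 2 (limma adjusted p = 0.0519 to 0.0805), and that for Acss2 without Usp22-KOA 2 or Usp22-KOB 1 (limma adjusted p = 0.0627 and 0.0509).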

How the results depend on the processing

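No log2 difference of the 31 genes changed its direction while called, over 21 alternative settings. With the 6 knockout samples as 1 group, the genes called for both knockouts against WT went from 19 to 3 of the 31 and from 6920 to 2946 of all genes, since the gap between the knockouts then counts as spread. For Usp22-KOB against WT, leaving out 1 sample gave 8 to 15 of the 31 genes (14 with all samples), and the 8 came without WT 2. The same range was 22 to 24 for Usp22-KOA against WT, 18 to 22 for both knockouts and 24 to 28 between the knockouts. Over all tested genes the ranges were 3725 to 5615 for Usp22-KOB and 6946 to 8224 for Usp22-KOA against WT. They were 5555 to 7401 for both knockouts and 5912 to 7393 between the knockouts. Single calls against WT were lost in 31 cases for Usp22-KOB and 13 for Usp22-KOA. In Usp22-KOB 22 were gained, 21 of them lower (Ebp, Acss2, Fads1, Srebf1 and Pmvk) and 1 higher (Lss), and with array weights 13 of the 31 genes were called higher and 6 lower. With these weights 3576 of all 13843 tested genes were called higher and 4073 lower in Usp22-KOB. Whether the replicate numbers mark a shared animal or day was not stated. Same-numbered samples had correlations of their deviations from -0.125 to 0.276. Between Usp22-KOA and Usp22-KOB these were 0.187, 0.0765 and 0.276 for replicates 1, 2 and 3, and those with WT ran from -0.125 to 0.0770. With a replicate block 19, 23, 13 and 25 of the 31 genes were called for both knockouts, Usp22-KOA, Usp22-KOB and Usp22-KOA against Usp22-KOB. Of all 13843 tested genes, 6702, 7588, 4835 and 6922 were called in the same order. With 3 samples a group and no read depth, small differences such as those in Usp22-KOB are the least certain.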
